A study of Mus musculus with 9 samples.

Results

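Hearts with both alleles of *Ctcf* floxed under *Nkx2.5-Cre* (homozygotes, *Ctcf* fl/fl; Nkx2.5-Cre/+) were compared with hearts that carried the same driver and one floxed allele (heterozygotes, *Ctcf* fl/+; Nkx2.5-Cre/+). The comparison holds 6 of the 9 RNA-seq libraries of the series, 3 of each genotype, taken by their genotype. Since both sides carry the driver and at least one floxed allele, the genotypes differ by design in the second *Ctcf* allele. Every library was made from polyA RNA of a pool of 6 whole hearts at embryonic day 10.5, from embryos of a mixed strain whose parents were *Ctcf* fl/+; Nkx2.5-Cre on one side and *Ctcf* fl/fl on the other, and no treatment was given. The remaining 3 libraries were controls without the driver, given as *Ctcf* fl/fl in the sample descriptions and as *Ctcf* fl/+ in the study's methods, and they entered the same fit, which also gave the steps from controls stated below. *Nkx2.5-Cre* acts in cardiac progenitors and their descendants, so that blood and other cells of the heart outside this lineage keep the floxed allele intact, and in bulk RNA fewer cells of a type and less RNA per cell cannot be told apart. Nothing in the descriptions says how litters were spread over the pools, so p-values measure the spread between pools, which may be partly technical.

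CTCF is a zinc finger protein that binds DNA at many sites and, with the cohesin ring, holds the bases of chromatin loops. It works as an insulator between enhancers and promoters that lie in neighboring domains, and it also binds close to promoters. In the heart at this stage the ventricles form trabeculae, cardiomyocytes assemble sarcomeres and calcium cycling, and the atrioventricular and outflow cushions are being seeded with mesenchyme, while the circulating blood is almost wholly primitive erythrocytes with embryonic globins.

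Values are read counts scaled to library size, not divided by gene length, and are compared only within a gene. The 6 libraries held from 4294537 to 11629365 reads over 14011 genes, and 1 read was worth a value between 0.0901 and 0.231. The shallowest were heterozygote library 3 and homozygote library 1. Cardiomyocyte markers were plentiful in every library, and 7 of 11 neural crest and neural markers and 6 of 11 foregut and pharyngeal markers were among the genes tested. Replicates of a genotype differed by more than counting noise in every pair, their chi-square statistic being 3.22 to 7.15 times its degrees of freedom. Fold changes below are homozygote over heterozygote on the scale of log2(value + 0.5), given with their SE, and an adjusted p is that of limma after Benjamini-Hochberg adjustment over all genes tested.

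In homozygous hearts 11 of 21 calcium handling genes, 9 of 20 ion channels and connexins and 15 of 38 cardiac transcription factors were called lower than in heterozygous hearts. On the other side 70 of 82 cytosolic ribosomal proteins, 30 of 84 nuclear genes of the respiratory chain and 12 of 13 heme biosynthesis genes were called higher. With the trend on gene length removed, the respiratory list had 14 calls. In all, 1901 genes had an adjusted p under 0.05. The rises numbered 962 and the falls 939, and the called genes, the rises and the falls made up 13.6%, 6.87% and 6.7% of the genes tested. Most differences were small. Called genes differed by a median of 0.43 on the log2 scale in either direction, and only 79 of the rises and 89 of the falls reached a factor of 2 on this scale. The 3 libraries of one genotype lay above all 3 of the other for 1869 of the 1901 called genes and for 30.8% of all genes tested. Calls were made on these same libraries, so this count adds no separate support. The count of calls was 1023 without homozygote library 3, 1223 without heterozygote library 3 and 1257 without heterozygote library 2, and edgeR called 1903 and DESeq2 1434 on the recovered reads. The summed level of erythroid markers was 64579 or more in the homozygote libraries and 49849 or less in the heterozygote libraries. With that level as a covariate, an alternative chosen after seeing the data, the median SE was 1.90 times as wide, the fold changes of the 1901 genes were a median of 0.842 times those without it, and 43 genes were called, 39 of them the same way as without it, with 1312 genes at an unadjusted p under 0.05. Of the 1901 genes 1823 kept their sign. Blood RNA and genotype cannot be told apart further than this in 6 pools.

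*Ctcf* (ENSMUSG00000005698, chromosome 8: 108160468 to 108206822 of NCBIM37) had normalized values of 101, 94.2 and 97 in the heterozygote libraries and 79.6, 79.97 and 84.7 in the homozygote libraries. The controls were at 121, 122 and 122, and the 3 groups did not overlap. The step from heterozygotes to homozygotes was -0.26 ± 0.06 (adjusted p = 0.0097), which left 83.7% of the heterozygote mean. The step from controls to heterozygotes was -0.32 ± 0.06 (adjusted p = 0.047). The reads cover the whole gene in whole hearts, so RNA of cells outside the *Nkx2.5* lineage and any transcript left from a recombined allele are counted too and cannot be told apart. With the erythroid covariate the *Ctcf* difference kept its direction at -0.22 but not its call (adjusted p = 0.58).

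The largest falls among protein-coding genes of at least 10 normalized counts included 2 components of the contractile and electrical machinery. *Tnni2* (chromosome 7: 149627713 to 149630315), which encodes the fast skeletal isoform of the troponin inhibitory subunit, had 25.1, 26.3 and 19.5 in the heterozygote libraries and 4.88, 3.47 and 3.02 in the homozygote libraries. All 3 homozygote libraries lay far below the heterozygote libraries, and the fold change was -2.50 ± 0.17 (adjusted p = 2.0e-06). *Gja5* (chromosome 3: 96708616 to 96881339), the gene of connexin 40 in the gap junctions of atrial and trabecular myocardium, had 122, 158 and 145 in the heterozygote libraries and 55.7, 46.6 and 33.1 in the homozygote libraries. The genotypes were far from overlapping, at -1.67 ± 0.17 (adjusted p = 5.6e-05). *Adprhl1*, a member of the ADP-ribosylhydrolase family expressed in the heart (chromosome 8: 13235655 to 13254162), had 37, 41.6 and 35.9 in the heterozygote libraries and 12.1, 12.4 and 13.2 in the homozygote libraries. Its homozygote libraries differed by less than 2 normalized counts from each other, and the fold change was -1.56 ± 0.10 (adjusted p = 2.0e-06).

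Among the other large falls, *S1pr3*, a receptor of sphingosine-1-phosphate, fell from 24.2, 24.5 and 20.6 to 10.1, 8.89 and 7.88 (-1.32 ± 0.13). *Lgi2*, which encodes a secreted leucine-rich repeat protein, fell from 28.9, 34.4 and 31.5 to 12.6, 16 and 9.14 (-1.33 ± 0.15). *Lrrc4b*, the gene of a synaptic adhesion protein, and *Gsg1l*, that of an auxiliary subunit of AMPA receptors, had fold changes of -1.39 ± 0.16 and -2.02 ± 0.17. The secreted metalloprotease gene *Adamts19* fell from 10.8, 11.4 and 11 to 4.66, 2.79 and 3.65 (-1.49 ± 0.17). *Acpl2*, *Fam116b* and *Tmem44* stood at -1.44 ± 0.14, -1.42 ± 0.16 and -1.57 ± 0.17. None of the falls named so far was called between heterozygotes and controls, where their fold changes ran from -0.37 to 0.27. The largest fall, *Gm4737* at -6.03 ± 0.63, is given below among genes with near-identical copies. It was called higher in heterozygotes than in controls (5.91 ± 0.63, adjusted p = 0.00036). The twelfth fall, *S1pr3* at -1.32, was followed just outside the list by *Aldh5a1* at -1.32.

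Among the rises, *Fgf13* (chromosome X: 56315322 to 56821248), an intracellular member of the FGF family that binds voltage-gated sodium channels, had 27.7, 29.2 and 31 in the heterozygote libraries and 76, 78.8 and 80.02 in the homozygote libraries. The libraries of each genotype lay close together, and the fold change of 1.4 ± 0.08 had an adjusted p of 8.2e-07. *Serpinb9* (chromosome 13: 33095119 to 33109826), an intracellular inhibitor of granzyme B, had 9.17, 6.12 and 7.96 in the heterozygote libraries and 31.7, 36.3 and 31.8 in the homozygote libraries (2.05 ± 0.15, adjusted p = 4.8e-06). *6330512M04Rik* on chromosome 7 rose from 3.58, 3.09 and 3.81 to 21.2, 19.7 and 17.2 (2.32 ± 0.16). This locus overlaps *Ctsd* in the annotation, so the reads of both cannot be told apart there. *Guca1b*, which encodes a guanylate cyclase activator known from photoreceptors, and *Nrn1*, the gene of neuritin, rose by 1.62 ± 0.25 and 1.52 ± 0.23, and *2810055F11Rik* and *Gm1564* by 1.64 ± 0.15 and 1.82 ± 0.27. *Ctse*, the gene of the aspartic protease cathepsin E, had 5.44, 12.6 and 0.346 in the heterozygote libraries and 22.1, 20.6 and 25 in the homozygote libraries. Its heterozygote libraries were widely spread, the call was lost in 8 of 23 alternatives, and the fold change of 2.51 ± 0.66 had the widest SE among rises of genes without a near-identical copy. That fold change was 1.38 without heterozygote library 3 and 3.36 without heterozygote library 2. Just outside the list stood *Mnd1* at 1.35, next to *Fgf13* at 1.4.

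The 5 remaining genes of the lists, *Gm4737*, *Gm9000*, *Gm10119*, *Rps2-ps6* and *Tpm3-rs7*, are at least 95% identical to other genes over at least 50% of their exonic length, and their reads cannot be told apart from those of the parent. *Gm4737* matched *Ahcy*, and it had 1403 reads over the heterozygote libraries against 8 over the homozygote libraries, while the controls were at 0.0582, 2.59 and 0.0731. Its call was lost in DESeq2 (adjusted p = 0.095) and in limma with the erythroid covariate (adjusted p = 0.082). *Ahcy* itself, the enzyme that hydrolyzes S-adenosylhomocysteine, rose by 0.37 ± 0.06. *Gm9000* and *Gm10119* both matched *Rps3a*, and they had 4 and 9 reads over the heterozygote libraries against 1158 and 1023 over the homozygote libraries. The controls were at 50.5, 64.1 and 1.39 for *Gm9000* and at 39.6, 65 and 1.24 for *Gm10119*, so that control library 3 was low for both, and *Rps3a* itself was not called at 0.23 ± 0.09. *Tpm3-rs7* had 1.32, 0.946 and 2.19 in the heterozygote libraries and 45.8, 15 and 14.2 in the homozygote libraries, and the controls were at 21.8, 27.1 and 1.24, with control library 3 inside the heterozygote range. The call of *Tpm3-rs7* was lost in limma without the trend (adjusted p = 0.07), at an adjusted p under 0.01 and with the erythroid covariate. *Rps2-ps6* had no read in any heterozygote or control library and 41, 28 and 266 reads in the homozygote libraries. Set against 3 reads for a count of 0 over the heterozygotes, a limit for counting noise alone, the ratio was 95.4-fold. Replicates varied by more than counting noise and near-identical copies exist, so this is not a bound on expression. Most of the homozygote reads were of library 3, and without it the ratio was 53.3-fold. In all, 115 of 1897 called genes with a place in the annotation had such a copy.

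**Figure D1:**
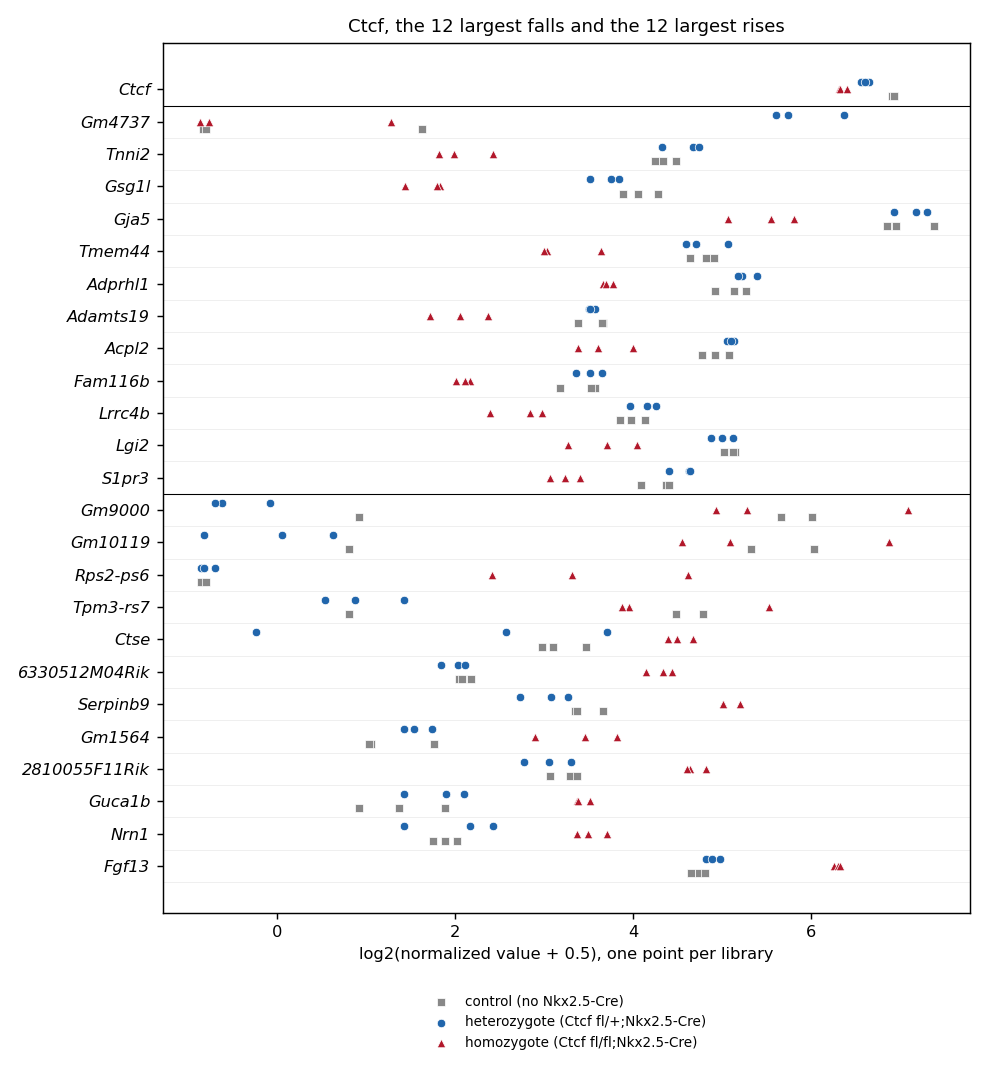
Normalized values on the scale of log2(value + 0.5), 1 point per library, for *Ctcf*, the 12 largest falls and the 12 largest rises between homozygotes (red triangles) and heterozygotes (blue circles), with controls as gray squares. The *Ctcf* points of the 3 groups do not overlap, and the heterozygote points of *Ctse* are spread widely, from 0.346 to 12.6 before the log.

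Since CTCF binds close to many promoters, the 250 bases before each annotated start were read from the RefSeq promoter table of GRCm38.p6 and searched on both strands for the core of the CTCF consensus. The core was present in 35 of 655 genes called lower (5.34%), in 21 of 667 called higher (3.15%) and in 177 of 8257 not called (2.14%). It was present in 233 of the 9579 genes tested that have an entry (2.43%), and in 1.48% of all 27025 gene symbols of the table. These shares are a description of the letters and not of binding. Of the 12 falls and 12 rises, 9 had an entry, and 2 held the core. They are printed 5′ to 3′ to show where it lies, with the match in capitals.
Adprhl1, chr8:13254163-13254412, minus strand: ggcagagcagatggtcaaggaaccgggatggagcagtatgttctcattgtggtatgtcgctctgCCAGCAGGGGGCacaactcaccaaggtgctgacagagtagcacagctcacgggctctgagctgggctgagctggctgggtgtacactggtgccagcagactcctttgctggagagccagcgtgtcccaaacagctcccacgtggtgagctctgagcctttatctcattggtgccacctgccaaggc
Tmem44, chr16:30550579-30550828, minus strand: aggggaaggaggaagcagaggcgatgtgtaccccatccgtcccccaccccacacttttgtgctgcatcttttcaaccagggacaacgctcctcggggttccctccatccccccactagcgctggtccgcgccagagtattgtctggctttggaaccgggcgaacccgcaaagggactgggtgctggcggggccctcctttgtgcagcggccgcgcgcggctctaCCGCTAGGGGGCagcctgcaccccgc
Counted from the annotated start, the first base of the match is at -186 in *Adprhl1* and at -26 in *Tmem44*.

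The lists of genes below were read by their counts of called members and by their median fold change, beside a median of -0.0045 over all genes tested and 6.7% of all genes called lower. Among the 31 lists of gene function, those of chamber myocardium, ion channels, calcium handling and protocadherins had the lowest medians, and those of heme enzymes and cytosolic ribosomal proteins the highest. The marker lists are given further on. Leaving out any 1 library kept the count of calls within 1.5 times for cardiac transcription factors, thin filament, Z-disc, ion channel, chamber, glycolysis, heme, cohesin and cytosolic ribosomal protein genes. With the erythroid covariate at most 2 members of any list were called. Among the lists with 10 or more calls the median kept its sign except for heme biosynthesis (-0.02), erythroid markers (-0.04) and translation factors (-0.008). The erythroid markers make up the covariate, so a median near 0 for them was fixed in advance. The median with the covariate was -0.23 for chamber genes, -0.21 for ion channels and connexins, -0.14 for cardiac transcription factors, -0.08 for BMP and TGF-beta genes and -0.11 for Wnt and hedgehog genes, beside -0.48, -0.41, -0.21, -0.18 and -0.25 without it.

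**Figure D2:**
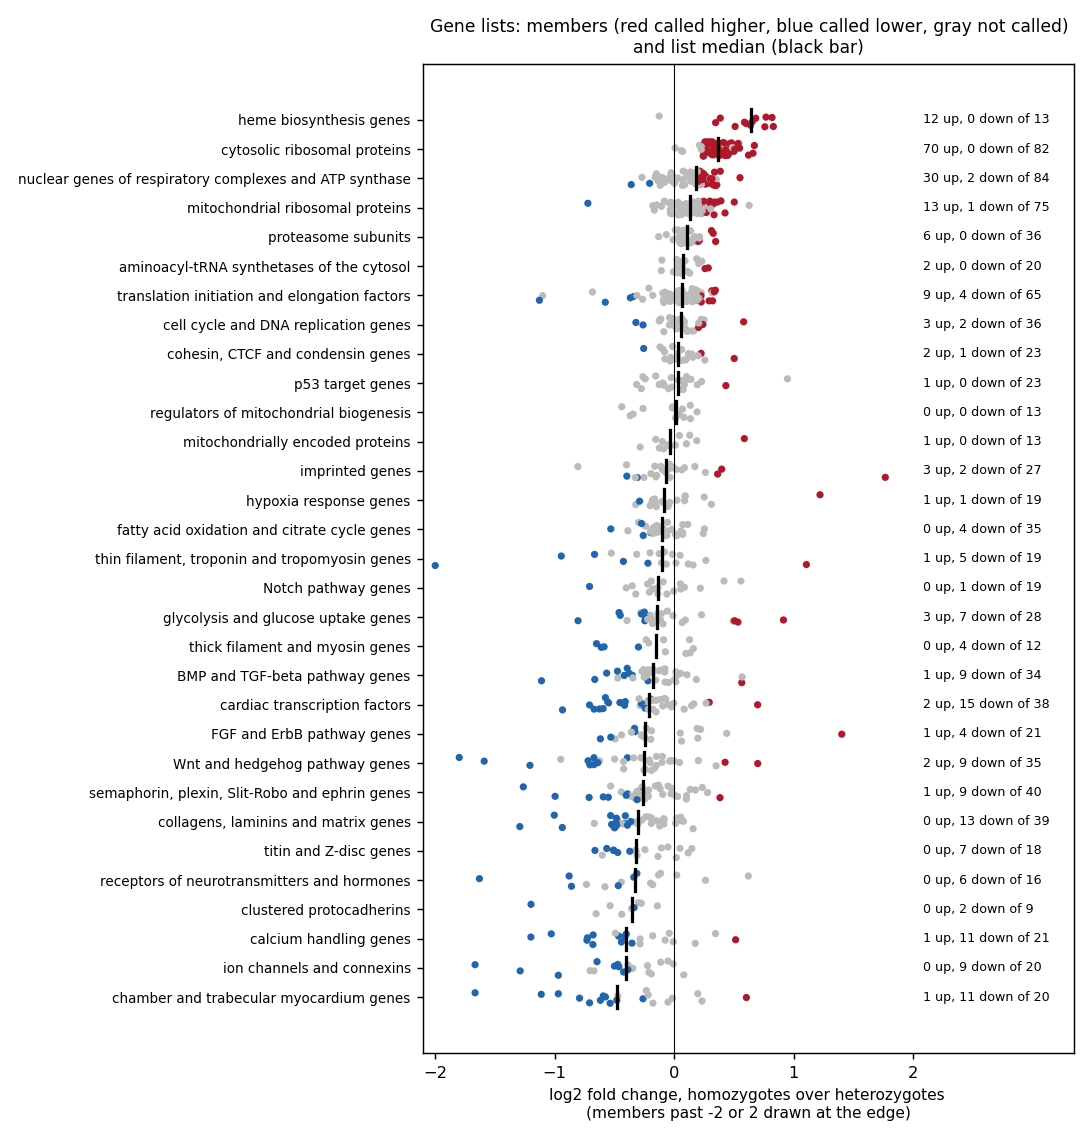
Log2 fold change of homozygotes over heterozygotes for each measured member of 31 gene lists (points, red called higher, blue called lower, gray not called) with the list median as a black bar. The medians run from -0.48 for chamber and trabecular genes to 0.64 for heme biosynthesis.

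Among cardiac transcription factors, 15 were called lower and 2 higher of 38 measured. *Irx4*, which marks ventricular myocardium, had 46.1, 47.7 and 49.5 in the heterozygote libraries and 26.7, 25.8 and 22 in the homozygote libraries and fell by 0.93 on the log2 scale (SE 0.09, adjusted p = 3.6e-05). *Hey2*, a repressor downstream of Notch in the compact ventricle, had 67.7, 71.8 and 65.2 in the heterozygote libraries and 41.9, 42.1 and 40.7 in the homozygote libraries, a fall of 0.71. *Myocd*, the coactivator of serum response factor, and *Prdm16* fell by 0.59 and 0.63. *Nkx2-5* itself had 53.7, 58.8 and 58.5 in the heterozygote libraries and 38.3, 36.8 and 41.4 in the homozygote libraries, against a control mean of 75.4. Its step to homozygotes was -0.55 ± 0.08 (adjusted p = 0.00076), and that from controls to heterozygotes was -0.40 ± 0.08 (adjusted p = 0.097). *Hand1*, *Mef2c*, *Hopx* and *Tbx5* were also called lower, at -0.56, -0.45, -0.58 and -0.41. *Gata4*, *Hand2* and *Tbx20* were not called, with fold changes of -0.07 ± 0.06, -0.05 ± 0.09 and -0.22 ± 0.08. *Tbx18*, known from the epicardium, and *Foxh1*, a partner of SMAD proteins, were the members called higher (0.29 and 0.70).

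Sarcomere genes fell in part. Of the thick filament and myosin genes, 4 were called lower and none higher of 12 measured, and both cardiac myosin heavy chains were among them. *Myh6* had 3192, 3939 and 4039.9 in the heterozygote libraries and 2474, 3029.8 and 2000.0 in the homozygote libraries (-0.59 ± 0.15, adjusted p = 0.022), and *Myh7* fell by 0.61 and the M-band gene *Myom1* by 0.65. Without homozygote library 3 a single gene of this list was called. The *Myh6* libraries did not overlap between genotypes, but homozygote library 2 came close to the lowest heterozygote library. Among thin filament, troponin and tropomyosin genes 5 were called lower and 1 higher of 19 measured. Besides *Tnni2*, the nebulin-related *Nrap* fell from 15.3, 22.9 and 16 to 8.74, 10.1 and 8.24 (-0.94 ± 0.17), and *Lmod2*, a nucleator of thin filaments, fell by 0.67. *Tnnt3*, the fast skeletal troponin T, went the other way, from 6.91, 8.77 and 10.5 to 20.1, 20.6 and 16.9 (1.11 ± 0.15). The cardiac isoform *Tnni3* was not called (0.16 ± 0.06). Of the titin and Z-disc genes, 7 were called lower and none higher of 18 measured, led by *Fhl2*, *Synpo2*, *Actn2* and *Xirp1* at -0.66, -0.56, -0.51 and -0.51.

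Among calcium handling genes 11 were called lower and 1 higher of 21 measured, with a median of -0.40. *Ryr2*, the release channel of the sarcoplasmic reticulum, had 239, 315 and 354 in the heterozygote libraries and 159.8, 169.7 and 115 in the homozygote libraries, with homozygote library 3 lowest and no overlap (-1.03 ± 0.15, adjusted p = 0.00096). *S100a1*, a calcium sensor that binds this channel, fell from 11.9, 9.65 and 10.03 to 3.29, 4.15 and 5.72 (-1.20 ± 0.17). The T-type channel gene *Cacna1h*, the calcium-binding *Hrc*, the exchanger *Slc8a1* and the pump *Atp2a2* fell by 0.73, 0.73, 0.68 and 0.42. Calsequestrin 2 (*Casq2*) was the member that rose (0.51 ± 0.13). Without heterozygote library 3 the list had 7 calls, and without homozygote library 3 its median was -0.26. Among ion channels and connexins 9 were called lower and none higher of 20 measured. *Gja1*, the gene of connexin 43, had 185, 198 and 174 in the heterozygote libraries and 81.2, 79.3 and 66.9 in the homozygote libraries, at -1.29 ± 0.08 (adjusted p = 1.3e-06), a call that held in each of the 23 alternatives. *Abcc9*, a subunit of the potassium channel gated by ATP, *Hcn4*, the pacemaker channel, and *Kcnh2* fell by 0.65, 0.50 and 0.46. Of the receptors of neurotransmitters and hormones, 6 were called lower and none higher of 16 measured, among them the adrenergic receptor *Adra1b* (-1.63 ± 0.21), the muscarinic receptor *Chrm2* (-0.88 ± 0.24) and the endothelin receptor *Ednra* (-0.86 ± 0.14). Without 1 library of either genotype the receptors had as few as 3 calls.

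Genes of chamber and trabecular myocardium, a list that shares *Gja5*, *Hey2* and *Hopx* among others with those above, had the lowest median, -0.48, and 11 were called lower and 1 higher of 20 measured. *Popdc3*, a cyclic AMP binding membrane protein, fell from 9.56, 9.15 and 12.1 to 3.52, 5.16 and 4.82 (-1.11 ± 0.17), and *Bves* of the same family fell by 0.48. *Cited1*, a transcriptional coactivator, had 140.1, 151 and 131 in the heterozygote libraries and 81, 77.3 and 84.8 in the homozygote libraries (-0.79 ± 0.07, adjusted p = 2.4e-05). *Nppa*, the gene of atrial natriuretic peptide, had 822, 791 and 863 in the heterozygote libraries and 677, 618 and 439.5 in the homozygote libraries (-0.54 ± 0.12, adjusted p = 0.013), and *Erbb2*, the coreceptor of neuregulin, and *Sema3a* fell by 0.62 and 0.59. *Cited4* was the one that rose (0.60 ± 0.17). Without homozygote library 3 the median of the list was -0.31.

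In the BMP and TGF-β list 9 were called lower and 1 higher of 34 measured. The ligand *Bmp7* and the receptors *Bmpr1b* and *Tgfbr3* fell by 0.57, 1.11 and 0.66, the ligands *Tgfb2* and *Bmp2* by 0.39 and 0.42, and the ligand *Tgfb3* rose by 0.57 ± 0.11. Of the Wnt and hedgehog genes, 9 were called lower and 2 higher of 35 measured. *Scube2*, which releases hedgehog ligands from cells, had 7.80, 9.90 and 8.88 in the heterozygote libraries and 2.38, 2.45 and 1.76 in the homozygote libraries (-1.80 ± 0.17, adjusted p = 4.2e-05). *Nkd2*, an inhibitor of Dishevelled, fell from 2.99, 3.47 and 3.58 to 0.568, 0.762 and 1.04 (-1.59 ± 0.24). The matricellular *Wisp1* fell from 42.3, 48.6 and 55.7 to 21.7, 20.2 and 20.4 (-1.21 ± 0.09), and the secreted potentiator *Rspo3* by 0.71, while the secreted *Dkk3* rose from 95.2, 99.5 and 109.9 to 189, 184 and 128 (0.70 ± 0.12). Among FGF and ErbB genes 4 were called lower and 1 higher of 21 measured, the rise being *Fgf13*, which is not a ligand, and the falls being the receptors *Erbb2* and *Fgfr1* (-0.33) and the targets *Etv4* and *Etv5* (-0.53 and -0.33). Of the Notch genes, 1 was called lower and none higher of 19 measured, and the member called was *Hey2*. Leaving out 1 library left as few as 5 calls for BMP and TGF-β (without heterozygote library 1), 5 for Wnt and hedgehog (without heterozygote library 2) and 2 for FGF and ErbB (without heterozygote library 1 or 2).

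Among collagens, laminins and matrix genes 13 were called lower and none higher of 39 measured. *Cspg4*, the proteoglycan NG2, had 39.6, 51.4 and 30.3 in the heterozygote libraries and 16.9, 19.4 and 12.1 in the homozygote libraries (-1.29 ± 0.18, adjusted p = 0.00071). The laminin subunit gene *Lama2*, *Vcan*, which fills the cardiac jelly, and *Postn* had fold changes of -1.0, -0.52 and -0.49. Of the semaphorin, plexin, Slit-Robo and ephrin genes, 9 were called lower and 1 higher of 40 measured. The ligand *Slit2* had 72.7, 85.8 and 74.9 in the heterozygote libraries and 41.9, 42.4 and 32.5 in the homozygote libraries (-1.0 ± 0.11, adjusted p = 8.6e-05), its receptor *Robo1* fell by 0.39, and *Sema5b* and *Plxna2* fell by 1.26 and 0.55. *Sema3d* rose by 0.38 ± 0.07. Without homozygote library 3 the matrix list had 6 calls and the guidance list 6. Clustered protocadherins, whose promoter choice is a textbook task of CTCF, had a median of -0.36, and 2 were called lower and none higher of 9 measured. *Pcdhb20* fell from 1.52, 1.45 and 1.73 to 0.114, 0.592 and 0.585 (-1.20 ± 0.32) and *Pcdhgc5* by 0.34. The list had 1 call without any 1 of 5 libraries and none at an adjusted p under 0.01, and its median ran from -0.77 to -0.24 over the alternatives.

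Ribosomal protein genes rose nearly as a class. Of the cytosolic ribosomal proteins, 70 were called higher and none lower of 82 measured, and the called members rose by 0.24 to 0.67 on the log2 scale. *Rpl34* had 294, 298 and 317 in the heterozygote libraries and 476, 472 and 488 in the homozygote libraries (0.66 ± 0.06, adjusted p = 3.9e-05). *Rpsa*, also a laminin receptor, *Rps16* and *Rpl26* rose by 0.62, 0.55 and 0.53. *Rps13* rose the most (0.67 ± 0.21) but barely passed (adjusted p = 0.0498). Near-identical copies exist for 27 of the list, so that their reads may be split. Leaving out 1 library gave 55 to 73 calls, and the erythroid covariate gave a median of 0.23 with 1 call. Of the mitochondrial ribosomal proteins, 13 were called higher and 1 lower of 75 measured, with *Mrps16* the largest rise (0.50 ± 0.07). *Mrps2* fell instead, from 52.1, 54.6 and 55.2 to 32.8, 30.5 and 34.3 (-0.72 ± 0.07). Among translation initiation and elongation factors 9 were called higher and 4 lower of 65 measured. *Eef1b2*, *Eif3f* and *Eif1* rose by 0.34, 0.34 and 0.32, while *Eef1a2*, the muscle and neuron isoform of the elongation factor, fell from 26.8, 24.7 and 18.8 to 10.1, 11.6 and 9.41 (-1.13 ± 0.14). The Argonaute genes *Eif2c1* and *Eif2c2*, which carry initiation factor names but act in RNA silencing, fell by 0.58 and 0.37. Of the cytosolic aminoacyl-tRNA synthetases, 2 were called higher and none lower of 20 measured, and of the proteasome subunits, 6 were called higher and none lower of 36 measured, led by *Psma3* and *Psmb1* (0.35 and 0.33). Without homozygote library 3 the mitochondrial ribosomal proteins had 5 calls, and without heterozygote library 2 the translation factors had 6. The proteasome had 3 calls without heterozygote library 2 or homozygote library 3. The synthetases had none without heterozygote library 1 or homozygote library 3, and up to 4 without another library.

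Of the nuclear genes of the respiratory complexes and ATP synthase, 30 were called higher and 2 lower of 84 measured, at a median of 0.18, and with the trend on gene length removed the median was 0.06. The largest rises were *Cox7a1*, the muscle isoform of a cytochrome oxidase subunit (0.55 ± 0.09), *Cox7b* (0.39 ± 0.05) and *Uqcrq* (0.36 ± 0.09), and the falls were *Ndufb7* and *Ndufs1* (-0.36 and -0.21). Without heterozygote library 2 or homozygote library 3 the list had 16 calls. Mitochondrially encoded proteins had a median of -0.03, which was 0.08 without homozygote library 1 and -0.13 without homozygote library 2, and the member called was *mt-Nd3* (0.59 ± 0.07). None of 13 regulators of mitochondrial biogenesis was called by limma, where 4 had an unadjusted p under 0.05, edgeR called 0 and DESeq2 0. With the trend on gene length removed 2 were called, and 1 without heterozygote library 1 or homozygote library 2. *Tfam*, which packages mitochondrial DNA, was at 0.01 ± 0.06, and the coactivator *Ppargc1a* at -0.37 ± 0.12. Fatty acid oxidation and citrate cycle genes had 4 of 35 called lower and none higher, among them *Cpt1b*, the muscle carnitine acyltransferase (-0.53 ± 0.07). Glycolysis was mixed, and 7 were called lower and 3 higher of 28 measured. The phosphofructokinase *Pfkp* and hexokinase *Hk2* fell by 0.80 and 0.45, whereas muscle phosphoglycerate mutase (*Pgam2*) had 159, 149 and 175 in the heterozygote libraries and 293, 307 and 309.8 in the homozygote libraries, a rise of 0.91 ± 0.07 (adjusted p = 7.7e-06). Without heterozygote library 2 a single gene of fatty acid oxidation was called, and without heterozygote library 1 the glycolysis list had 7 calls.

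Of the cohesin, CTCF and condensin genes, 2 were called higher and 1 lower of 23 measured. The fall was *Ctcf*, and the rises were the cohesin subunits *Stag1* and *Stag2*. *Stag1* had 109.5, 108 and 109 in the heterozygote libraries and 149, 159.5 and 154 in the homozygote libraries (0.50 ± 0.06, adjusted p = 0.00012), with the lowest homozygote library far above the highest heterozygote library. Imprinted genes, several of which have CTCF sites in their control regions, had 3 called higher and 2 lower of 27. *Phlda2* rose from low values of 0.736, 1.20 and 0.577 to 3.75, 3.81 and 4.37 (1.77 ± 0.49), *Snrpn* and *Dcn* rose by 0.40 and 0.36, and *Zim1* and *Plagl1* fell by 0.40 and 0.31. *H19* and *Igf2*, the model of CTCF insulation, were not called, at -0.10 ± 0.10 and -0.06 ± 0.08. Of the cell cycle and replication genes, 3 were called higher and 2 lower of 36 measured, with *Myc* (0.58 ± 0.10) and *Ccnd2* (-0.32 ± 0.07) the widest apart. Among p53 targets 1 was called higher and none lower of 23 measured, *Phlda3* at 0.43 ± 0.11. Of the hypoxia response genes, 1 was called lower and 1 higher of 19 measured, and *Ndrg1* had 5.44, 8.52 and 7.27 in the heterozygote libraries and 18.7, 16.7 and 15.4 in the homozygote libraries (1.22 ± 0.18). Leaving out 1 library left as few as 3 imprinted genes (without heterozygote library 1 or 3 or homozygote library 3) and 2 cell cycle genes (without heterozygote or homozygote library 2), and lost the call of the p53 target. The hypoxia list had 1 call without heterozygote library 3 or homozygote library 1 or 3.

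The neighborhoods of 4 cardiac genes were read over lists of genes, since CTCF separates neighboring regulatory domains. The lists do not hold every tested gene there, and *6330512M04Rik*, which overlaps *Ctsd* and rose as given above, is not on that of *Tnni2*. Around *Tnni2* on chromosome 7, 8 listed genes were measured, *Tnni2* included. Of these 2 were called higher and only *Tnni2* lower, beside 6.87% and 6.7% of all genes tested. *Ctsd*, the lysosomal protease cathepsin D with its middle 63.5 kb away, had 303, 354 and 304 in the heterozygote libraries and 659.6, 669.8 and 559 in the homozygote libraries (0.97 ± 0.08, adjusted p = 1.1e-05). On the other side *Lsp1*, the nearest tested gene at 34.7 kb, was not called (0.23 ± 0.07, adjusted p = 0.0504), and *Tnnt3* beyond it at 64.3 kb rose as given above. Around *Irx4* on chromosome 13, 4 were called lower, *Irx4* itself among them, and 4 higher of 13 measured. *Ndufs6*, the next gene at 59.1 kb, rose by 0.26 ± 0.07, *Mrpl36* was not called (0.18 ± 0.08), *Lpcat1* and *Clptm1l* rose by 0.38 and 0.22, and farther along *Slc12a7*, *Nkd2* and *Tppp* were called lower (-0.49, -1.59 and -0.65). *Irx1* and *Irx2* on the other side of *Irx4* were not called (0.15 ± 0.28 and -0.08 ± 0.15). In the *Tnnt1*-*Tnni3* neighborhood *Tnnt1* fell by 0.43, and *6030429G01Rik* rose by 1.11 ± 0.30 at low means of 0.851 in heterozygotes and 2.43 in homozygotes. Around *Nppa* on chromosome 4, *Nppa* and *Clcn6* were called lower (-0.54 and -0.47) and *Fbxo6* higher (0.56), and *Nppb* at 0.23 ± 0.10 was not called. Without heterozygote library 3 the *Irx4* neighborhood had 4 calls and the *Nppa* neighborhood none, without any 1 of heterozygote libraries 2 and 3 and homozygote libraries 1 and 2 the *Tnnt1*-*Tnni3* neighborhood had 1 call, and that of *Tnni2* had 3 or more without any 1 library.

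**Figure D3:**
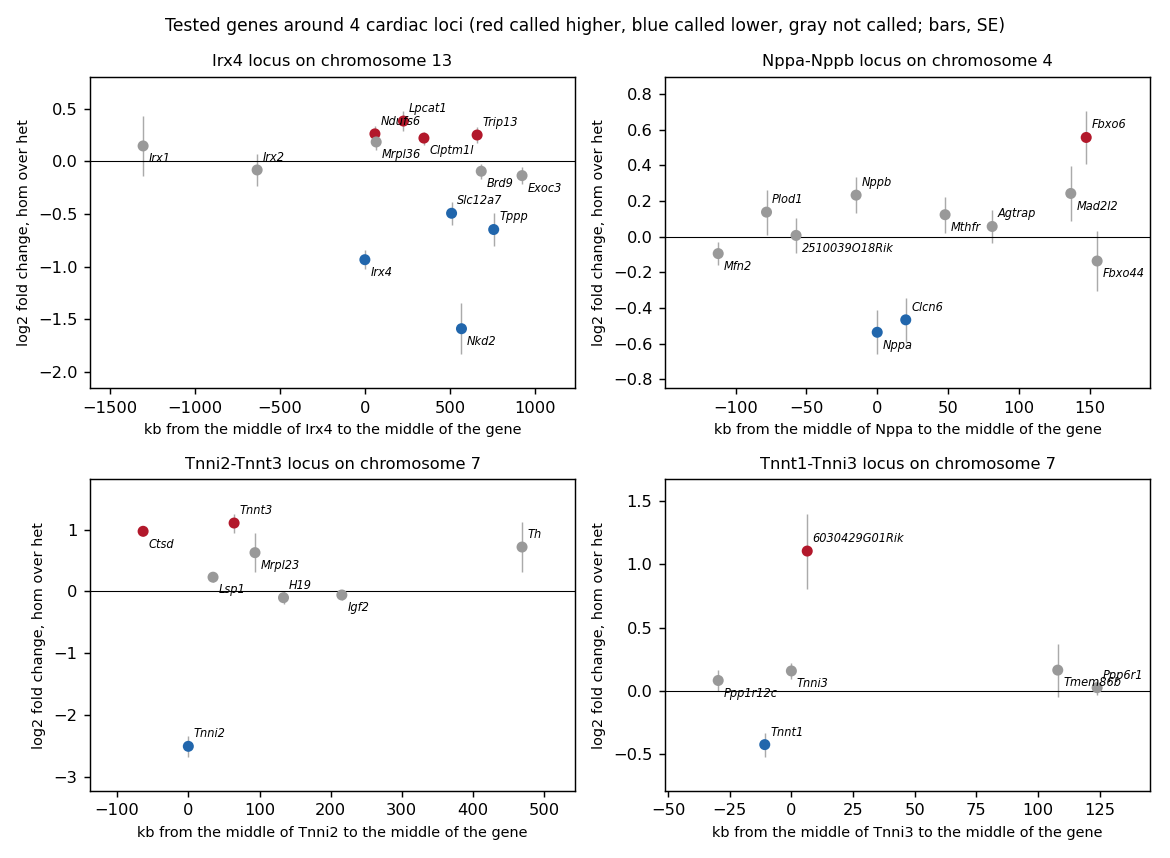
Log2 fold change of homozygotes over heterozygotes with SE bars for the listed genes around *Irx4*, *Nppa*, *Tnni2* and *Tnni3*, against the distance between gene middles in kb (red called higher, blue called lower, gray not called). *Tnni2* is at -2.50, *Ctsd* on one side at 0.97, and *Lsp1* and *Tnnt3* on the other at 0.23 (not called) and 1.11, and *Irx4* at -0.93 stands beside *Ndufs6* at 0.26.

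The nearest tested genes on either side of the 12 falls and 12 rises were then compared. Of 24 neighbors of falls, 1 was called lower as well (*Plxnb2*, beside *Fam116b*) and 7 were called higher, beside 6.87% of all genes called higher. These were *Ctsd*, *Acp6*, *Grtp1*, *Isoc1*, *Josd2*, *D430042O09Rik* and *Cks2*. *Acp6*, a lysophosphatidic acid phosphatase 81.4 kb from *Gja5*, had 35.5, 36.3 and 37.7 in the heterozygote libraries and 88.7, 81.7 and 63.3 in the homozygote libraries (1.07 ± 0.11), and *Grtp1* beside *Adprhl1* rose by 0.76 ± 0.10. Of 24 neighbors of rises, 5 were called higher, *Ctsd*, *Fam72a*, *Gpr135*, *Jkamp* and *Guca1a*, and 3 lower, *Pde4d*, *Slitrk5* and *Serpinb6b*, beside 6.87% and 6.7% of all genes tested. *Ctsd* is counted in both sets. *Pde4d* and *Slitrk5* stand beside *Gm9000* and *Tpm3-rs7*, whose reads cannot be told apart from those of their parents, and *Slitrk5* is 1631 kb away. *Gpr135* and *Guca1a* had low means, of 0.489 and 1.00 in heterozygotes and 1.97 and 2.81 in homozygotes. *Serpinb6b*, of the same clade B family as its neighbor *Serpinb9*, fell from 14.5, 15.5 and 14.6 to 4.43, 8.55 and 8.51 (-1.06 ± 0.20). Several pairs overlap or lie within 5 kb of each other and may share reads.

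Markers of other cell types moved between the genotypes too. The 14 erythroid markers summed to 29592, 49849 and 38761 in the heterozygote libraries and 64579, 71634 and 85911 in the homozygote libraries. Of these markers 13 were called higher, with a median of 0.85, beside 6.87% of all genes called higher. All 14 had the homozygote libraries above every heterozygote library, beside 30.8% of all genes without overlap in either direction. Markers measured in the same pools are not separate observations. The embryonic globin *Hbb-y* had 10778, 18083 and 13881 in the heterozygote libraries and 23843, 27222 and 31812 in the homozygote libraries (0.98 ± 0.19, adjusted p = 0.0057), and *Klf1*, a transcription factor of red cells, rose by 0.87. Heme biosynthesis went with them, and 12 were called higher and none lower of 13 measured, with *Alas2*, its first enzyme in red cells, at 0.83 ± 0.17. Epicardial markers summed to 581, 592 and 574 in the heterozygote libraries and 802, 725 and 726 in the homozygote libraries, with 6 of 11 called higher, among them *Wt1* (0.54 ± 0.08), *Upk1b* (0.65 ± 0.07) and *Upk3b* (0.38 ± 0.08). The part of epicardial RNA in the other differences was not tested.

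Cushion mesenchyme markers summed to 1664, 1711 and 1575 in the heterozygote libraries and 1380.2, 1399.8 and 1193 in the homozygote libraries. Of these 5 of 12 were called lower, the transcription factors *Snai1* (-0.73 ± 0.17) and *Twist2* (-1.20 ± 0.29) among them, and 2 without heterozygote library 1. Cardiomyocyte markers summed to 25458, 29288 and 27902 in the heterozygote libraries and 22993, 25541 and 22030.2 in the homozygote libraries, with overlap between the genotypes, and 5 of 14 were called lower. Endothelial and endocardial markers summed to 1529, 1477 and 1503 in the heterozygote libraries and 1554, 1317 and 1294 in the homozygote libraries, and 1 of 14 was called, *Kdr*, the VEGF receptor (-0.37 ± 0.10). Without heterozygote library 2 or homozygote library 3 the cardiomyocyte markers had 3 calls. The endothelial list had none without any 1 of the heterozygote libraries or homozygote library 2 or 3, and 4 without homozygote library 1. Single members were called in the lists of outflow and pharyngeal mesoderm (*Cnn1*, -0.37), neural (*Tubb3*, 0.45), foregut (*Sox17*, 0.87) and liver and visceral endoderm (*Serpina1a*, 1.73). The neural and foregut lists had medians of -0.37 and -0.28, and of -0.03 without heterozygote library 2 and -0.05 without homozygote library 2. The neural list had no call without control library 1 or any 1 heterozygote or homozygote library, the foregut list none without heterozygote library 1 or 3 or any 1 homozygote library, and the liver list none without control library 3, any 1 heterozygote library or homozygote library 1 or 3. Leaving out another library gave the liver list up to 4 calls. Macrophage markers had a median of 0.20, with *C1qb* called higher (0.94 ± 0.28) and *Lyz1* and *Lyz2* lower (-1.65 ± 0.31 and -0.67 ± 0.21) of 12. That median was -0.09 without homozygote library 3 and 0.47 without homozygote library 1, and without any 1 of the control libraries, heterozygote library 2 or 3 or homozygote library 1, 1 marker was called. The liver and visceral endoderm sum was 1351 in control library 1 and 116 to 227 in the other 8 libraries. Y-linked genes summed to 52, 88.4 and 106 in the heterozygote libraries and 42.7, 99.3 and 45.5 in the homozygote libraries and *Xist* had a fold change of -0.02 ± 0.20, with none called, none of the Y-linked genes at an unadjusted p under 0.05 and edgeR calling 0 and DESeq2 0. The Y-linked sum varied within both genotypes. Leaving out 1 library gave at most 1 Y-linked call. The Y-linked median of -0.44 was -0.89 without homozygote library 2 and -0.22 without heterozygote library 3.

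**Figure D4:**
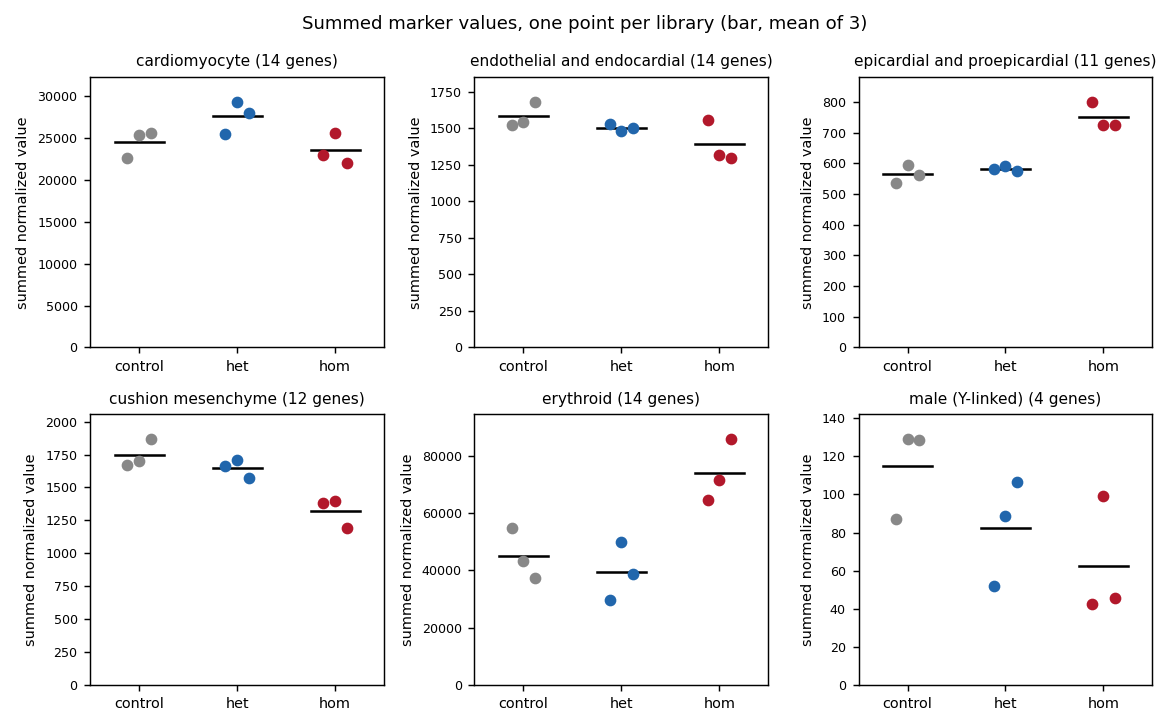
Summed normalized values of 6 marker lists, 1 point per library and a bar for the mean of 3, in controls, heterozygotes and homozygotes. The erythroid sum of every homozygote library, 64579 at the lowest, lies above the highest heterozygote library at 49849, and the cushion mesenchyme sums lie below.

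Fold change ran with the exonic length of the gene. Among the 1399 shortest genes, with a median length of 993 bases, the median log2 fold change was 0.14, and 230 genes were called higher and 27 lower. Among the 1399 longest, with a median of 9933 bases, it was -0.11, and 37 were called higher and 192 lower. With the trend on length removed in each library 1562 genes were called. The ribosomal protein genes, which are short, then had a median of 0.28 with 54 called, and the respiratory genes 0.06 with 14 called in place of 32. Mitochondrial ribosomal proteins had 5 calls in place of 14, the proteasome 3, FGF and ErbB genes 3 and the *Irx4* neighborhood 5. The lists of chamber, calcium handling and ion channel genes, with all measured members, then had medians of -0.52, -0.36 and -0.37.

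**Figure D5:**
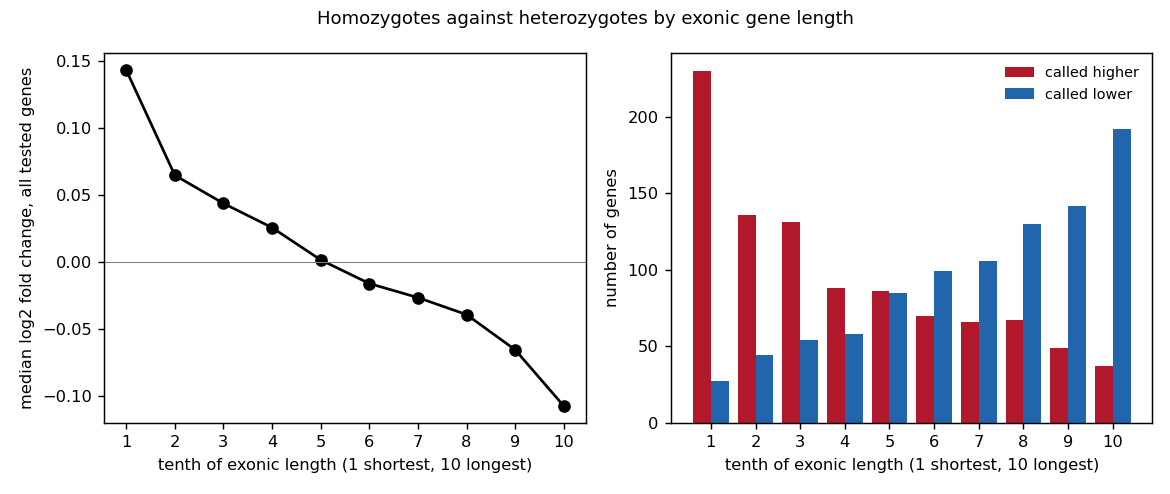
Median log2 fold change of homozygotes over heterozygotes (left) and numbers of genes called higher (red) and lower (blue, right) in 10 bins of tested genes of about equal size, ordered by exonic length. The median goes from 0.14 in the shortest bin to -0.11 in the longest.

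Calls were spread over the genome. Between 11.2% and 17.1% of the genes of each autosome were called. Within 5 Mb of *Ctcf*, where homozygotes carry the floxed segment on both chromosomes, 10 of 95 genes were called (10.5%), and within 10 Mb 14 of 134 (10.4%). Of protein-coding genes 14% were called, and of long intergenic noncoding RNAs 4.01%.

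The controls show where the heterozygotes stood. Heterozygotes and controls differed in 20 genes, 0.143% of those tested. The homozygote libraries serve in both of the next comparisons, which are therefore not independent. *Gja5* was -1.67 against heterozygotes and -1.59 against controls, *Gja1* -1.29 and -1.05, *Irx4* -0.93 and -0.83, and *Fgf13* 1.4 and 1.56. The distances were less alike for *S100a1* at -1.20 and -1.96, *Nrap* at -0.94 and -0.36, *Myh6* at -0.59 and -0.36 and *Rpl34* at 0.66 and 0.25. Of these 4 only *Rpl34* was called between heterozygotes and controls (-0.41 ± 0.06, adjusted p = 0.018), and *S100a1*, *Nrap* and *Myh6* were not (adjusted p = 0.18, 0.38 and 0.81). Against controls 2133 genes were called. The genes called between heterozygotes and controls included 8 pseudogenes, among them *Rps2-ps10*, *Gm13443* and *Gm9825*, which had means of 114, 18.8 and 12.3 in heterozygotes and 159, 15.4 and 11.7 in homozygotes and no read in any control library. *Gm15772* and *Gm12245*, by contrast, had means of 47.7 and 3.82 in heterozygotes, 0.636 and 0.937 in homozygotes and 0.424 and 0.138 in controls, and both were called lower in homozygotes than in heterozygotes (-5.49 ± 0.33 and -1.76 ± 0.44). The call of *Gm15772* held in 23 of 23 alternatives, and that of *Gm12245* in 14 of 21. Reads of such pseudogenes and of their parents cannot be told apart.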

How the data were processed

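Polyadenylated RNA of pools of 6 hearts was sequenced, 1 library per pool and 3 per genotype. The deposited table holds 1 signal value per gene and library, made by the authors with software that the labels list without roles (CASAVA 1.8, cutadapt 1.6.1, RSEM 1.20, Bowtie2 0.12.7 and limma), on NCBIM37. After removal of an offset of 0.5 reads and of the scaling to an effective library size, 100% of values came out as whole reads within 0.05 of a read. All 14011 genes listed reach a value of 1 in 3 libraries or more.

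Columns were assigned by name: those abbreviated DH to the double heterozygotes, KO to the homozygotes and Het, as the remaining group, to the controls that are heterozygous for the floxed allele in the study's methods. The numbers of heterozygote and control libraries are those of the columns and are not tied to single samples of the labels.

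All 9 libraries entered one limma 3.58.1 fit (R 4.3.3) with a mean-variance trend, on log2(value + 0.5), and p-values were adjusted by Benjamini-Hochberg with a threshold of 0.05. The fit was tested on simulated data. Alternatives used edgeR 4.0.16 and DESeq2 1.42.0 on recovered reads, other pseudocounts, filters, scalings, thresholds, covariates and left-out libraries. Genes were placed with GENCODE M1 (13987 of 14011), and near-identical copies were found with BLAST 2.17.0. The genes named first are the 12 largest rises and 12 largest falls among called protein-coding genes with a mean of at least 10 in the higher genotype and no overlap, leaving out Y-linked genes and *Xist*, followed by up to 4 called members of each list by size and by neighbors of these genes. Other members and genes named in the text were chosen with their values seen. The lists and the comparison were chosen with earlier results of these data known.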

Additional observations from a re-analysis of the deposited data

How the results depend on the processing

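Of 23 alternatives, most kept the count of called genes within 1.5 times of 1901. It moved to 1063 (541 higher, 522 lower) in limma without the trend, to 722 (363 higher, 359 lower) at an adjusted p under 0.01 and to 43 (16 higher, 27 lower) with the erythroid level as a covariate, chosen after seeing the data. In that last fit *Ctcf* was at -0.22 and lost its call. The cause of these moves was not tested beyond the wider SE of the covariate fit. Leaving out 1 library gave 1023 to 1859 genes (516 to 954 higher, 507 to 905 lower), and the total moved by more than 1.5 times without homozygote library 3 (1023), heterozygote library 3 (1223) or heterozygote library 2 (1257). Without heterozygote library 1 the rises moved to 608. With the number in the column names as a replicate block, 1553 genes were called (799 higher). The numbers were not taken as pairs, since same-numbered homozygote and heterozygote libraries had deviations correlated at 0.13, -0.05 and -0.08 over 9847 genes and not every library correlated best with its own number. For the 12 rises and 12 falls, 518 of 545 combinations of gene and alternative kept the call, 27 lost it, 17 of them with the erythroid covariate, and none turned direction. The 7 genes called in all of them were *2810055F11Rik*, *6330512M04Rik*, *Adprhl1*, *Fgf13*, *Gsg1l*, *Serpinb9* and *Tnni2*. Depth limits genes of low level most, since 1 read is worth up to 0.231 in heterozygote library 3.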
